A study of Mus musculus with 24 samples.

Results

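Potassium channel genes were taken from the count table as the Ensembl entries whose mouse symbol is Kcn, then letters, then a number, with a mean of at least 1 CPM (read counts relative to library totals scaled by TMM factors) over all libraries. Of 92 symbols of that form among 56750 entries, 73 reached this level and are the members described here. Each of the 62 members that form a pore carries the codons of the ion filter in its coding sequence. Total RNA of the medial prefrontal cortex of mice was sequenced in bulk, in 24 libraries that fall into 6 groups of 4. All carry the genotype label 5xFAD, a strain in which human transgenes with familial Alzheimer's disease mutations are driven in neurons by the Thy1 promoter, so no group without that label is among those compared. GH_Con and SI_Con are labelled control, where SI marks socially isolated mice. GH_EE and SI_EE had the enriched environment named in the series title, and GH_WT and SI_WT make up the WT arm. The title also names resocialization, which no label ties to an arm. What GH and WT stand for and the age of the mice are not stated in the sources used here. Nor is it stated whether the libraries of a group are separate animals, so a p-value speaks only to the scatter of these libraries, part of which may be technical.

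Potassium channels let potassium leave or enter a cell along its gradient and so set the resting potential, end action potentials and limit repetitive firing. Voltage-gated channels are tetramers that open on depolarisation, silent subunits join such tetramers without forming channels alone, and auxiliary subunits change their surface level and speed of closing. Inward rectifiers hold the membrane near rest and in astrocytes clear potassium, two-pore channels carry background current, and calcium-activated channels couple calcium entry to repolarisation. In cortex, Kcnc channels are known for the fast spiking of parvalbumin interneurons, Kcnd channels for the transient current of pyramidal dendrites, and Kcnq channels for the M-current.

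The filter that selects potassium over sodium is encoded in every pore-forming branch, and its codons are shown because they are what the 62 members share beyond their names. The pattern was a codon ACN, TCN, AGC or AGT, then any codon, then GGNTACGGN, GGNTATGGN, GGNTTCGGN or GGNTTTGGN, read in frame on the coding strand of the longest complete coding sequence in GENCODE M21. In the following runs of 24 bases, taken from the genome build GRCm38 (the assembly of mm10), capitals mark the 9 bases for glycine, tyrosine or phenylalanine, and glycine. Each run lies in coding exon sequence.
Kcna1, chr6:126642222-126642245, minus strand: accactgtgGGATACGGTgacatg
Kcnh1, chr1:192337751-192337774, plus strand: accagtgtgGGCTTTGGTaacatt
Kcng4, chr8:119625904-119625927, minus strand: acgaccgtgGGCTATGGGgacatg
Kcnj10, chr1:172369299-172369322, plus strand: accaccatcGGCTATGGCttccgc
Kcnj11, chr7:46099490-46099513, minus strand: gtgaccattGGTTTCGGCgggcgc
Kcnk10, first filter, across an exon junction: acaaccataGGGTATGGGaatatt
Kcnk10, second filter, chr12:98440599-98440622, minus strand: accacagtaGGCTTTGGTgatttt
Kcnma1, chr14:23528407-23528430, minus strand: tctacagtgGGTTATGGGgacgtt
Kcnt1, chr2:25894364-25894387, plus strand: tcaactgtgGGCTTCGGTgatgtg

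The pattern was found in 62 of 73 members (84.9%) and in 572 of 21778 protein-coding genes (2.63%). All 26 voltage-gated, 9 silent, 11 inward rectifier and 9 two-pore members hold it, as do the 3 members of the sodium-activated and Slo3 branch. Among calcium-activated members 4 of 7 hold it, Kcnma1 and Kcnn1 to Kcnn3, while Kcnmb1, Kcnmb2 and Kcnmb4, which encode beta subunits, do not. None of the 8 auxiliary members (Kcnab, Kcne and Kcnip genes) does. Of the two-pore members, 7 carry it at a pair of places, as Kcnk10 does. The others, Kcnk1 and Kcnk6, match it at 1 place. The pattern takes only tyrosine or phenylalanine between the glycines, so a filter with another residue there would be missed. The pattern is a description of these coding sequences and was not used to choose members.

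Total counts per library ran from 33683587 to 51274917, and 20354 genes were tested, among them all 73 members. The human APP entry had reads throughout. By Xist and Y-linked genes, 12 libraries were female and 12 male, with both sexes in each of the 6 groups, so every group holds at least 2 animals. SI_EE 1 stood apart: the summed level of 10 cerebellar markers was 5694 CPM there and 237 to 370 CPM in the others, and that of 7 pyramidal neuron markers was 1563 CPM there and 4345 to 6040 CPM in the others. In GH_Con 2, SI_Con 2, SI_Con 3 and SI_WT 4, genes with long exons were low (rank correlation of deviation with exon length over all genes -0.365, -0.469, -0.369 and -0.464, a description across genes). Thalamic and habenular markers summed to 676 CPM in SI_EE 1, 616 CPM in GH_WT 4 and 408 CPM in GH_WT 2, against 99.6 to 255 CPM elsewhere, and 9 choroid plexus markers to 1665 (SI_Con 4), 988 (SI_EE 3) and 729 CPM (GH_WT 2), against 195 to 349 CPM elsewhere. Striatal markers (8 genes) ranged from 294 CPM in SI_EE 1 and 315 CPM in GH_WT 1 to 1805 CPM in GH_EE 3. In bulk tissue, fewer cells of a type and less RNA per cell cannot be told apart.

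Levels are compared between genes per kilobase of annotated exon. Summed over the 73 members, the family stood at 1053 CPM per kilobase (6294 CPM before division by length). Voltage-gated members made up 35.6% of that sum, auxiliary members 22.0%, inward rectifiers 19.3%, two-pore members 8.95%, silent members 7.99%, calcium-activated members 4.53% and the sodium-activated and Slo3 members 1.62%. The highest single member was Kcnab2, the beta subunit that binds Kcna channels, at 68.9 CPM per kilobase.

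**Figure D1:**
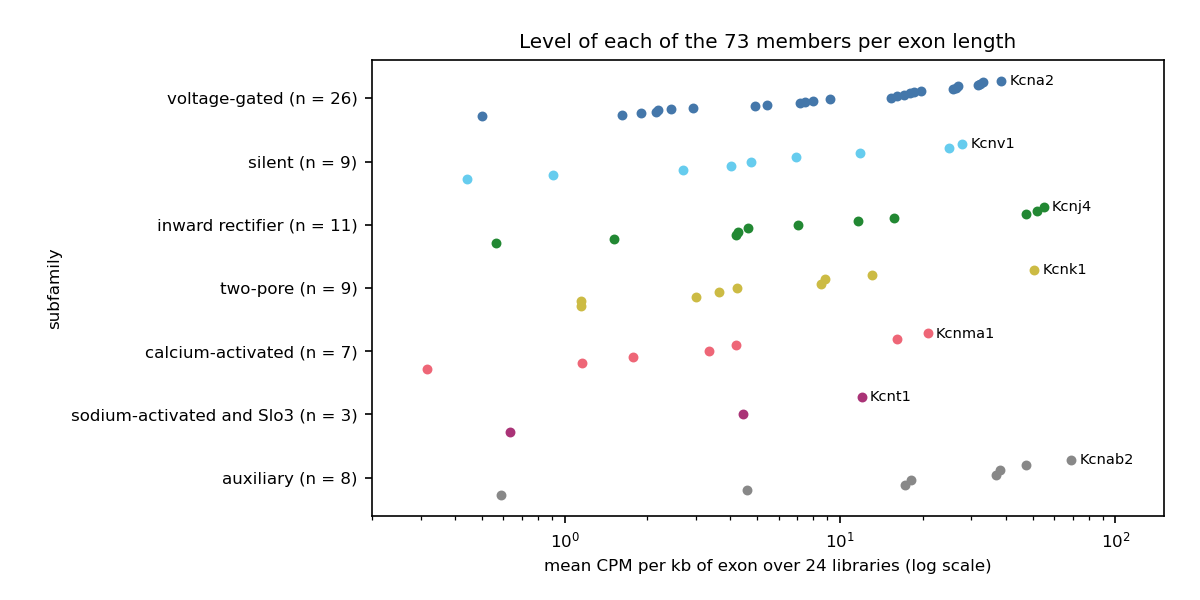
Mean CPM per kilobase of exon over the 24 libraries (x axis, log scale) for each of the 73 members, 1 point a member, by subfamily (y axis). The member with the highest level of each subfamily is named, from Kcnab2 at 68.9 to Kcnt1 at 11.98 CPM per kilobase.

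Among voltage-gated members, Kcna2, the axonal delayed rectifier, was first at 38.4 CPM per kilobase, and Kcna1 stood at 32.2 and Kcnc1 at 31.7. Kcnd2, the A-type channel of pyramidal dendrites, stood at 26.8 CPM per kilobase, while its relative Kcnd3 stood at 2.16. Of the M-channel genes, Kcnq3 stood at 19.7 and Kcnq5 at 17.9 CPM per kilobase. The lowest member of this branch was Kcnh6 at 0.502 CPM per kilobase. Kcnq1, a channel known from heart and ear, had a mean of 0.245 CPM and did not reach the minimum.

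Among inward rectifiers, Kcnj4, a strong rectifier of forebrain neurons, stood at 54.8 CPM per kilobase. Kcnj10, the Kir4.1 channel of astrocytes, stood at 51.7, and its heteromeric partner Kcnj16 at 7.02. The G-protein-gated members were spread widely: Kcnj9 stood at 47.4, Kcnj3 at 11.6 and Kcnj6 at 4.26 CPM per kilobase, and Kcnj5 had a mean of 0.685 CPM and was no member. Kcnj11, the pore of the ATP-sensitive channel of neurons, stood at 15.6, and Kcnj8, the pore of its mural cell counterpart, at 1.51 CPM per kilobase.

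Among two-pore members Kcnk1 stood at 50.7 CPM per kilobase, Kcnk2 (TREK-1) at 13.1 and the acid-sensitive Kcnk9 and Kcnk3 at 8.82 and 8.50. The calcium-activated branch was led by Kcnma1, the BK channel pore, at 20.8 CPM per kilobase, with its neuronal beta subunit Kcnmb4 at 16.1. The small-conductance pores Kcnn2, Kcnn1 and Kcnn3 stood at 4.18, 3.34 and 1.78. Kcnv1 (27.7 CPM per kilobase) and Kcnf1 (24.8) led the silent branch, and Kcnt1, a sodium-activated pore, stood at 11.98. Of the auxiliary genes other than Kcnab2, Kcnab3 stood at 47.4, Kcnip2 and Kcnip3, calcium sensors that bind Kcnd channels, at 38.0 and 36.9, and Kcne4 at 0.589 CPM per kilobase.

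Just inside the minimum lay Kcnmb1 with a mean of 1.32 CPM and Kcng3 with 1.48 CPM, and just outside lay Kcnj13 with 0.901 CPM and Kcnj5 with 0.685 CPM. Of the 19 symbols below the minimum, 6 passed the filter on low counts and were tested. No read was counted for Kcnj1, Kcnk16, Kcnk18 and Kcnmb3, which allows up to 0.0599 to 0.0884 CPM per library at 3 counts.

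Branch sums of the 6 groups are given as a description and were not tested. Auxiliary members summed to between 209 ± 49.3 CPM per kilobase in SI_EE, with SI_EE 1 at 140, and 254 ± 23.7 in SI_WT. Silent members summed to between 79.8 ± 20.1 in SI_EE, with SI_EE 1 at 50.3, and 91.5 ± 5.89 in GH_EE. Voltage-gated members summed to 354 ± 51.4 CPM per kilobase in GH_Con, 356 ± 94.1 in SI_Con, 408 ± 19.7 in GH_EE, 367 ± 54.8 in SI_EE, 394 ± 13.5 in GH_WT and 369 ± 95.5 in SI_WT (SD, n = 4). Libraries ran from 231 to 447 CPM per kilobase within SI_WT and from 256 to 442 within SI_Con, but only from 378 to 411 within GH_WT. Inward rectifiers summed to 185 ± 36.2 CPM per kilobase in SI_EE and to between 200 ± 23.4 (SI_WT) and 215 ± 7.94 (GH_WT) in the other groups. In SI_EE 1 they stood at 131 CPM per kilobase, the lowest library of its group. The two-pore sum ranged from 90.2 ± 2.003 in GH_Con to 98.8 ± 13.1 CPM per kilobase in SI_EE, with SI_EE 1 at 117, and the calcium-activated sum from 45.01 ± 5.55 in SI_EE to 50.4 ± 4.19 in GH_WT.

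The spread over the 24 libraries was wider for members than for genes at large. The median coefficient of variation (SD over mean) was 24.7% for the 73 members and 19.3% for the 15561 tested genes with a mean of at least 1 CPM, and 19.7% and 17.4% without SI_EE 1. The steadiest members were Kcnj9 (8.97%), Kcnk1 (9.49%), the ERG channel gene Kcnh2 (10.2%) and Kcnip3 (10.8%). Among the most variable were Kcng4 (124%), Kcnd3 (95.8%) and Kcnk10 (85.2%). For Kcng4 and Kcnk10 this was 27.3% and 12.01% without SI_EE 1, whereas Kcnd3 kept 94.2%.

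Of the 1752 values (73 members in 24 libraries), 100 lay more than 2-fold from the member's median. SI_EE 1 and the 4 libraries with low long genes held 83 of these, and the other 19 libraries held 17. For 24 members no library lay that far from the median. The heat map of deviations shows SI_EE 1 as a dark column and the other 4 as paler ones.

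**Figure D2:**
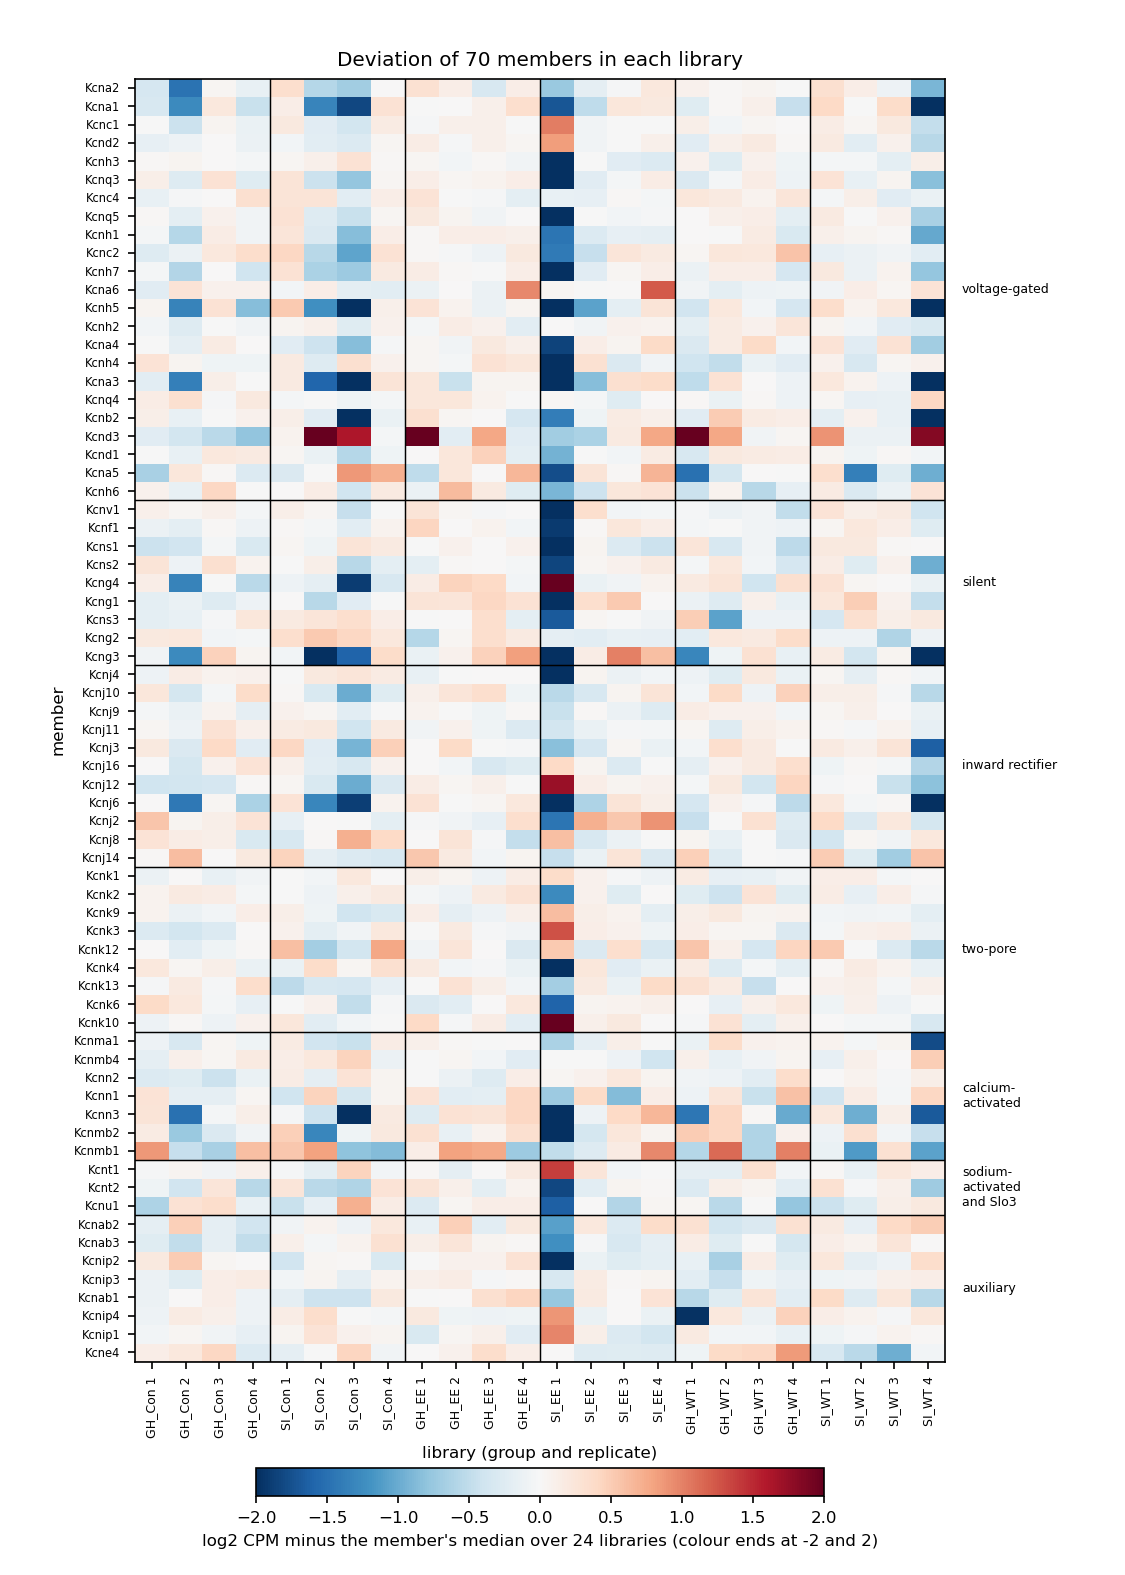
Log2 CPM of 70 members minus their median over 24 libraries (colour, ending at -2 and 2), with members in rows by subfamily and libraries in columns by group. SI_EE 1 is low for most of these and high for a few such as Kcng4 and Kcnk10, GH_Con 2, SI_Con 2, SI_Con 3 and SI_WT 4 are low for a shared set, and single cells such as Kcnd3 in GH_EE 1 and Kcnip4 in GH_WT 1 stand alone.

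SI_EE 1 was the lowest library for 37 of 73 members (50.7%, against 20.2% of all genes) and the highest for 13 (17.8%, against 20.6%). Kcnh7 was read at 30.5 CPM there and at 149.8 to 313 CPM in the others, and Kcnj4 at 24.7 against 103 to 144. Kcnh4 was read at 2.04 CPM there, 9.89% of the median of the others. In the silent branch 7 of 9 members had their lowest value in SI_EE 1, among them Kcnv1 at 24.01 CPM against 93.0 to 166. Among auxiliary genes, Kcnip2 was read at 23.96 CPM against 87.6 to 195.

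On the high side of SI_EE 1 were Kcng4 (122 CPM against 3.74 to 19.1 in the others), Kcnk10 (50.02 against 6.57 to 10.8), Kcnj12 (41.0 against 6.16 to 16.7) and Kcnt1 (272 against 91.2 to 143). Kcnc1, Kcnd2, Kcnip1, Kcnip4, Kcnk1, Kcnk3, Kcnk9 and Kcnj16 also had their highest value there, Kcnc1 at 592 CPM against 209 to 334. Kcnc1 and Kcnd2 are known as channels of cerebellar neurons as well as of cortex. Not all members were high there: Kcna1, Kcna2 and Kcnma1 stood at 30.2%, 59.4% and 64.2% of the median of the others. Kcnn2 stood at 103%. The cerebellar marker sum was also highest in that library, and its part in these values was not tested.

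The 4 libraries with low long genes shared a second pattern. In 10 of 73 members (13.7%) each of the 4 lay below every other library except SI_EE 1, against 6.35% of 15561 genes, and in 0 members did each lie above, against 4.70%. Of the 10, 8 are voltage-gated, among them Kcna1, Kcna2, Kcna3, Kcnc1, Kcnh5 and Kcnh7. The other two are Kcnj6, a G-protein-gated inward rectifier, and Kcnma1.

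Kcna1, the low-threshold channel of axons (chr6:126640397-126646384, minus strand), was read at 140, 72.2, 202 and 128 CPM in GH_Con 1 to 4 and at 193, 69.8, 49.2 and 215 CPM in SI_Con 1 to 4. In GH_EE it was read at 173, 176, 187 and 221 CPM and in SI_EE at 53.1, 123, 205 and 200 CPM. In GH_WT it was read at 148, 178, 187 and 126 CPM and in SI_WT at 229, 174, 226 and 21.6 CPM. The 5 libraries named above are the lowest ones, and all groups overlapped.

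Of these 10 members, mean deviations over the 4 libraries were -2.26 for Kcna3, -1.996 for Kcnh5, -1.86 for Kcna1 and -1.67 for Kcnj6 on the log2 scale. In the 24 members with the shortest exons (1902 to 3737 bases) the median deviation was 0.00, and 4 lay under -0.5. In the 25 of middle length it was -0.19 with 6 under -0.5, and in the 24 longest (5756 to 16976 bases) -0.48 with 11. Kcna3, the lowest, has the shortest annotated exons of the family at 1902 bases. Kcnd3, with 9587 bases, was high in 3 of the 4, at 58.4 CPM in SI_Con 2, 34.5 in SI_Con 3 and 40.4 in SI_WT 4, and at 8.72 CPM in GH_Con 2, against a median of 11.2 over all libraries, and its exons overlap Kcnd3os on the opposite strand by 165 bases. The part of exon length in these values was not tested.

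**Figure D3:**
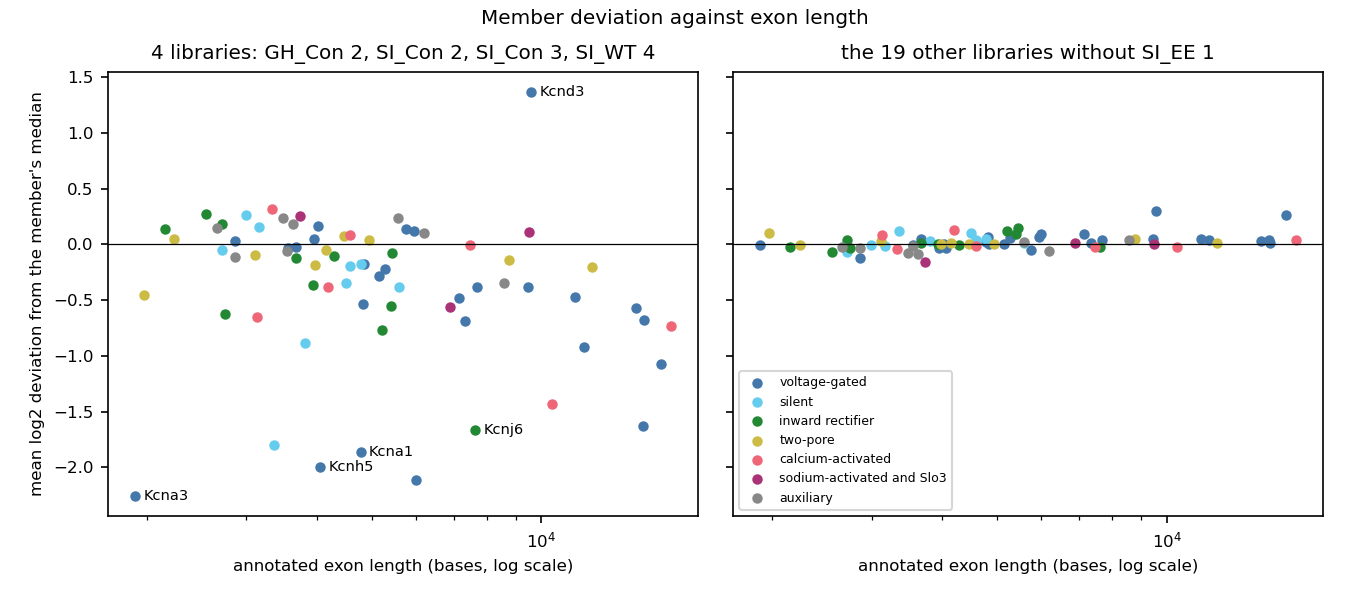
Mean log2 deviation of each member from its median (y axis) against annotated exon length in bases (x axis, log scale), in the 4 libraries GH_Con 2, SI_Con 2, SI_Con 3 and SI_WT 4 (left) and in 19 others without SI_EE 1 (right), coloured by subfamily. On the left the members reach from -2.26 (Kcna3) upward with Kcnd3 alone well above 0, and on the right they lie between -0.16 (Kcnu1) and 0.30 (Kcnd3).

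Outside those 5 libraries, 17 values of 10 members lay over 2-fold from the median, and the following members were chosen after their values were seen. Kcnd3 (chr3:105452330-105674002, plus strand) was read at 82.6 CPM in GH_EE 1 and 56.6 CPM in GH_WT 1. It lay at 6.51 to 9.60 CPM in GH_Con, at 11.8, 58.4, 34.5 and 10.9 in SI_Con, at 9.70, 19.2 and 9.60 in the other GH_EE libraries and at 6.93 to 19.2 in SI_EE. High Kcnd3 libraries thus occurred in 4 of the 6 groups. Kcnip4, whose product binds Kcnd channels, was read at 15.1 CPM in GH_WT 1 and at 54.1 to 109.5 CPM in all others. GH_WT 1 is also the library with the second lowest striatal marker sum (315 CPM). SI_EE 1, with the lowest sum (294 CPM), had the highest Kcnip4 value, 109.5 CPM. The part of striatal RNA in these values was not tested. Kcna6, a voltage-gated pore, was read at 118 CPM in SI_EE 4 and 98.1 CPM in GH_EE 4 and at 43.1 to 60.5 CPM in all others. Its exons overlap Gm26673 on the opposite strand by 2355 bases, and the use of strand in counting is not given in the sources used here, so reads of the pair cannot be told apart.

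**Figure D4:**
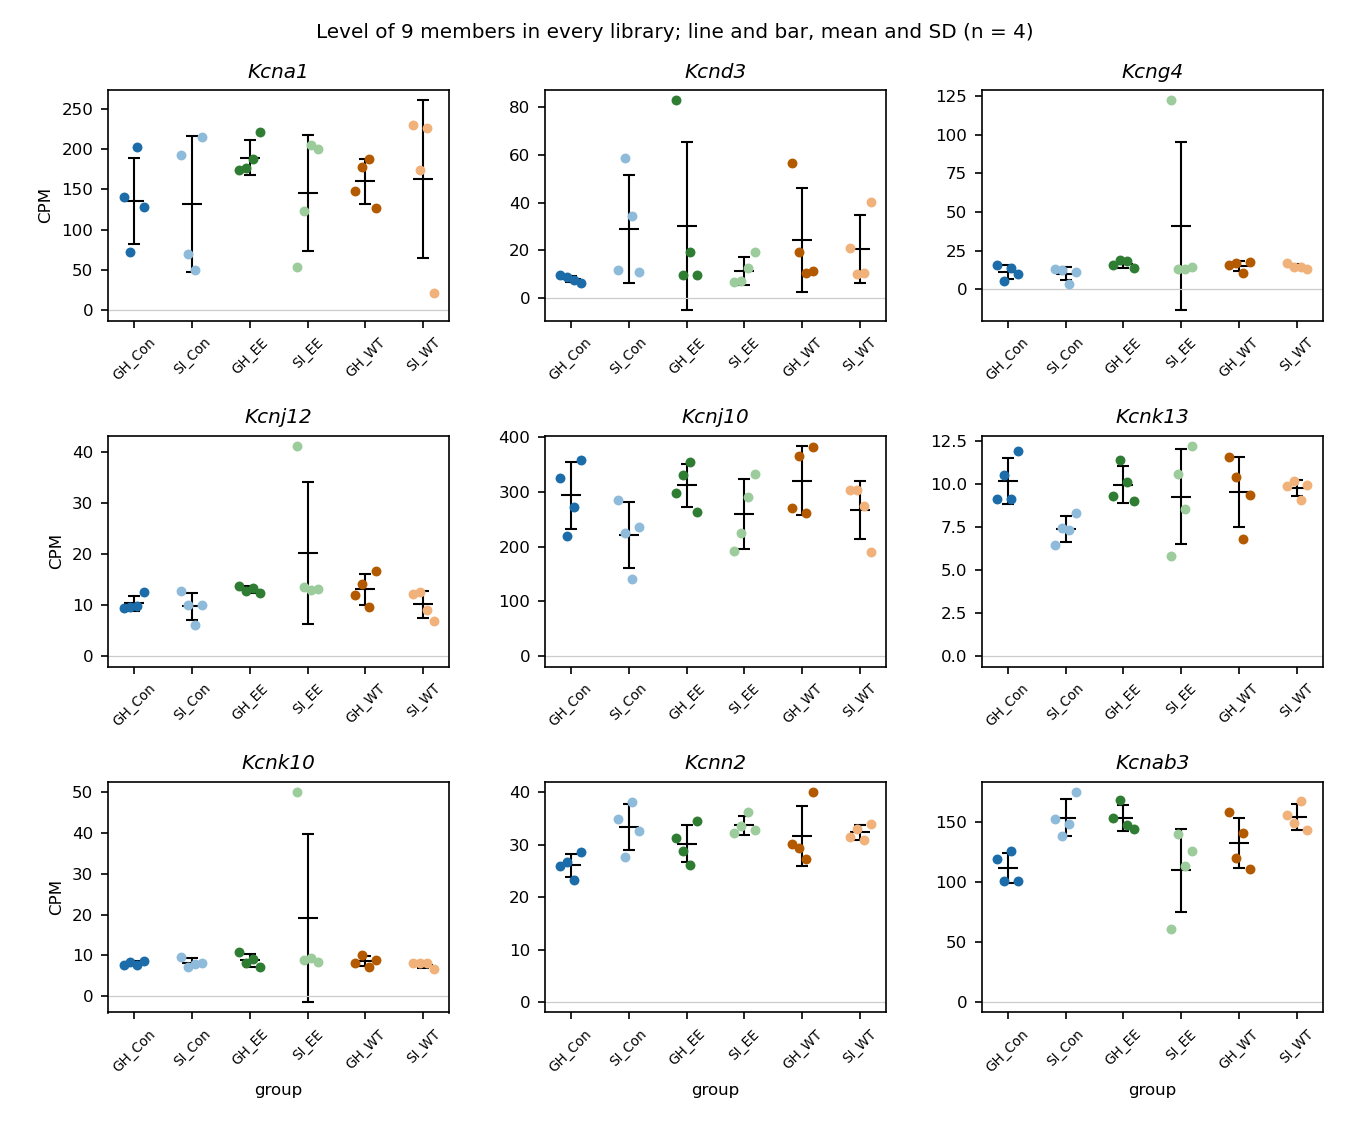
CPM of 9 members in every library (y axis, grey line at 0, points in replicate order) by group (x axis), with the mean as a line and the SD as a bar (n = 4). The groups overlap in most panels, and the widest bars come from single libraries such as Kcng4 at 122 CPM in SI_EE 1 and Kcnd3 at 82.6 CPM in GH_EE 1.

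Group differences were then tested for each member with edgeR's quasi-likelihood test on the counts, in 1 fit of 20354 genes over the 24 libraries with Benjamini-Hochberg adjustment over all genes. No member passed an adjusted p of 0.05 in any of 10 tests. These were 7 pairs of groups, 2 interactions and the test of any difference among the 6 groups. The interactions are of an arm with the GH or SI label, called housing here. The other tools run, DESeq2 and limma-voom, called 0 members in each of the 10 too. All genes at large were nearly as quiet with edgeR, with 0.0% to 0.0491% called. The smallest adjusted p of a member was 0.19, for Kcng4 in SI_EE against SI_Con, and the median SE of a member's log2 fold change was about 0.29 in the pairs of groups and 0.41 in the interactions. A missing call does not show that levels were equal. Shares of all genes are given for the edgeR fit of all libraries. Unadjusted counts by DESeq2, by voom or without some libraries have no such share beside them. They are not read as results about the members.

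The first question was isolation without treatment, SI_Con against GH_Con. Of 73 members 0 were called (0.0% of all genes), and 4 had an unadjusted p under 0.05 (5.48%, against 6.53% of all genes) by edgeR, 4 by DESeq2 and 3 by voom. The log2 fold change was above 0 for 33 and below 0 for 40, with a median of -0.02 beside 0.00 over all genes. Without the 4 libraries with low long genes, of which 3 are in this comparison, 50 were above 0 and the median was 0.09.

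Kcnn2, a small-conductance calcium-activated pore, had the smallest p. It was read at 25.96, 26.6, 23.3 and 28.6 CPM in GH_Con and at 34.8, 27.7, 38.1 and 32.7 CPM in SI_Con. The groups overlapped only through SI_Con 2. Its exons overlap A330093E20Rik by 284 bases and AC121957.1 by 323 bases, both on the opposite strand. The log2 fold change was 0.35 (SE 0.12), with an adjusted p of 0.553 by edgeR. Kcnab3, a beta subunit (chr11:69326258-69333042, plus strand), was read at 119, 101, 125 and 101 CPM in GH_Con and at 153, 138, 149 and 175 CPM in SI_Con, without overlap, a log2 fold change of 0.46 (SE 0.17, edgeR adjusted p = 0.608). Kcnk13, a two-pore channel of microglia, was read at 9.16, 10.6, 9.15 and 11.96 CPM in GH_Con and at 6.46, 7.47, 7.35 and 8.36 CPM in SI_Con, also without overlap (log2 fold change -0.46, SE 0.18, edgeR adjusted p = 0.634). The summed level of 6 microglial markers was 257 to 439 CPM in GH_Con and 196 to 303 CPM in SI_Con, and its part in the Kcnk13 values was not tested. Oligodendrocyte markers summed to 4302 to 5696 CPM in GH_Con and 3499 to 3901 CPM in SI_Con, and precursor markers to 186 to 222 and 148 to 182 CPM, both without overlap, and their part in the values of this comparison was not tested. Groups did not overlap for 4 members higher in SI_Con (Kcnab3, Kcnd3, Kcng2 and Kcnip1; 2.18% of 15561 genes did so) and 2 lower (Kcnj2 and Kcnk13; 2.58% of genes). For Kcnd3 the log2 fold change was 1.83 (SE 0.72), and 0.53 without the 4 libraries with low long genes.

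Isolation within the enriched environment, SI_EE against GH_EE, gave 0 calls (0.00491% of all genes) and 6 members with an unadjusted p under 0.05 (8.22%, against 8.7% of all genes) by edgeR, 6 by DESeq2 and 8 by voom. The fold change was below 0 for 54 of 73 members, with a median of -0.22 beside 0.02 over all genes. Without SI_EE 1 it was below 0 for 46, the median was -0.06, and 2 members had an unadjusted p under 0.05. With SI_EE 1 included, the fold change was below 0 for 21 of 26 voltage-gated, 8 of 9 silent and 6 of 8 auxiliary members. In the same fit it was below 0 for 6 of 7 calcium-activated, 7 of 11 inward rectifier and 4 of 9 two-pore members.

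Kcnk10 (TREK-2), with the smallest p, was read at 10.8, 8.06, 9.08 and 7.10 CPM in GH_EE and at 50.02, 8.82, 9.39 and 8.25 CPM in SI_EE. Only SI_EE 1 stood outside the range of GH_EE. The log2 fold change was 1.13 (SE 0.39, edgeR adjusted p = 0.455), and 0.01 (SE 0.15) without SI_EE 1. Kcng4 had a log2 fold change of 1.29 (SE 0.56) with SI_EE 1 and -0.29 (SE 0.32) without it. Kcnab3 was read at 153, 168, 147 and 145 CPM in GH_EE and at 60.6, 140, 113 and 125 CPM in SI_EE, without overlap. Its log2 fold change was -0.48 (SE 0.17, edgeR adjusted p = 0.472), and -0.28 (SE 0.12) without SI_EE 1. Values of both groups were apart for 3 members lower in SI_EE, Kcnab3, Kcnh1 and Kcnip2 (2.26% of genes), and for 0 higher (2.09% of genes). Kcnj2, an inward rectifier named after its values were seen, was read at 34.6, 30.8 and 39.6 CPM in SI_EE 2 to 4, above GH_EE (18.8 to 26.5 CPM), and at 7.64 CPM in SI_EE 1.

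Isolation within the WT arm, SI_WT against GH_WT, gave 0 calls (0.0% of all genes) and 2 members with an unadjusted p under 0.05 (2.74%, against 5.37% of all genes) by edgeR, 3 by DESeq2 and 3 by voom. The fold change was above 0 for 33 members and for 47 without the 4 libraries with low long genes, of which SI_WT 4 is in this comparison, and the median was -0.05 and 0.07. Without the same 4 libraries 1 member had an unadjusted p under 0.05. Kcne4, a small auxiliary subunit, was read at 1.41, 1.97, 2.03 and 2.76 CPM in GH_WT and at 1.20, 1.02, 0.740 and 1.45 CPM in SI_WT. The groups overlapped through GH_WT 1 and SI_WT 4 at a level near the minimum. The 8 markers of meninges and fibroblasts summed to 51.3, 114, 23.8 and 98.9 CPM in GH_WT and to 30.7, 20.6, 18.6 and 37.0 CPM in SI_WT, and choroid plexus markers to 241 to 729 and 195 to 221 CPM. Their part in the Kcne4 values was not tested. Its log2 fold change was -0.89 (SE 0.24, edgeR adjusted p = 0.698). Kcnip3, a calcium sensor, and Kcnc4, a fast-inactivating channel, had log2 fold changes of 0.25 (SE 0.11) and -0.24. Groups did not overlap for 2 members lower in SI_WT, Kcnc2 and Kcnk9 (2.28% of genes), and for 0 higher (1.43% of genes).

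Enrichment in GH mice, GH_EE against GH_Con, gave 0 calls (0.00491% of all genes) and 2 members with an unadjusted p under 0.05 (2.74%, against 6.32% of all genes) by edgeR, 2 by DESeq2 and 1 by voom. The fold change was above 0 for 51 of 73 members (69.9%), beside 46.4% of all genes, with a median of 0.09. Without the 4 libraries with low long genes, of which GH_Con 2 is in this comparison, 52 were above 0 and the median was 0.04. Without SI_EE 1, which is in neither group but enters the shared fit, 7 members had an unadjusted p under 0.05 by edgeR. The share of all genes in that refit is not given here, so the rise is not read as particular to members. Kcnab3 had the smallest p, at 101 to 125 CPM in GH_Con and 145 to 168 CPM in GH_EE (log2 fold change 0.46, SE 0.17, edgeR adjusted p = 0.652). Kcnd3 had a log2 fold change of 1.90 (SE 0.72), carried by GH_EE 1 at 82.6 CPM. Groups did not overlap for 4 members higher in GH_EE (Kcnab3, Kcnd3, Kcng1 and Kcns1; 5.52% of genes) and for 0 lower (4.21% of genes). Kcng1 and Kcns1, both silent subunits, were read at 15.2 to 16.9 and 25.4 to 33.2 CPM in GH_Con and at 21.4 to 24.1 and 34.2 to 36.6 CPM in GH_EE. Interneuron markers summed to 993 to 1121 CPM in GH_Con and 1144 to 1230 CPM in GH_EE, and precursor markers to 186 to 222 and 154 to 181 CPM, both without overlap, and their part in these values was not tested. This comparison shares GH_Con with that of isolation, so the Kcnab3 values of GH_Con enter both.

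Enrichment in isolated mice, SI_EE against SI_Con, gave 0 calls (0.0% of all genes) and 10 members with an unadjusted p under 0.05 (13.7%, against 12.6% of all genes) by edgeR, 10 by DESeq2 and 13 by voom. The fold change was above 0 for 32 members, with a median of -0.09, for 47 without SI_EE 1, with a median of 0.07, and for 19 without the 4 libraries with low long genes, with a median of -0.19. Kcng4, a silent subunit that joins Kcnb channels (chr8:119623854-119635680, minus strand), was read at 13.1, 12.5, 3.74 and 11.2 CPM in SI_Con and at 122, 12.9, 13.4 and 14.7 CPM in SI_EE. One library of each group lay far from its fellows. The log2 fold change was 2.01 (SE 0.58, edgeR adjusted p = 0.19), and 0.44 (SE 0.32, adjusted p = 0.633) without SI_EE 1. Kcnj12, a strong inward rectifier, was read at 12.7, 9.98, 6.16 and 10.1 CPM in SI_Con and at 41.0, 13.6, 12.9 and 13.1 CPM in SI_EE, without overlap. Its log2 fold change was 1.05 (SE 0.31, edgeR adjusted p = 0.193), and 0.45 (SE 0.22) without SI_EE 1. For Kcnk10 the values were 1.23 (SE 0.39) and 0.12 (SE 0.15). Kcng2, a silent subunit, was read at 3.30, 3.80, 3.50 and 3.05 CPM in SI_Con and at 2.29, 2.26, 2.35 and 2.32 CPM in SI_EE, and its log2 fold change of -0.56 (SE 0.19, edgeR adjusted p = 0.228) was -0.55 (SE 0.20) without SI_EE 1. Groups did not overlap for 1 member higher in SI_EE, Kcnj12 (2.23% of genes), and for 3 lower, Kcng2, Kcnh3 and Kcns3 (2.65% of genes).

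For the WT arm of the GH groups, GH_WT against GH_Con, 0 members were called (0.0% of all genes). By edgeR 2 had an unadjusted p under 0.05 (2.74%, against 3.42% of all genes), by DESeq2 2 and by voom 1. Without SI_EE 1 the edgeR count was 6. Kcnn2 was read at 30.1, 29.4, 27.2 and 39.97 CPM in GH_WT beside 23.3 to 28.6 CPM in GH_Con, a log2 fold change of 0.28 (SE 0.12, edgeR adjusted p = 1.0). Kcnd3 had 1.59 (SE 0.72), carried by GH_WT 1 at 56.6 CPM, and Kcnip3 had -0.22. Groups did not overlap for Kcnd3 on the higher side (2.51% of genes) and Kcnh4, a slow voltage-gated channel, on the lower (1.9% of genes).

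With isolation in both groups, SI_WT against SI_Con, 0 members were called (0.0% of all genes) and 3 had an unadjusted p under 0.05 (4.11%, against 3.84% of all genes) by each of edgeR, DESeq2 and voom. The unadjusted count was 5 without SI_EE 1 and 1 without the 4 libraries with low long genes. The fold change was above 0 for 41 members and for 25 without these 4. Kcng2 was read at 2.44, 2.42, 1.71 and 2.43 CPM in SI_WT, below all of SI_Con (log2 fold change -0.60, SE 0.19, edgeR adjusted p = 1.0). Kcnk13 was read at 9.93, 10.2, 9.08 and 9.98 CPM in SI_WT, above all of SI_Con (0.40, SE 0.18), and Kcne4 had -0.52 (SE 0.24). Markers of meninges and fibroblasts summed to 55.3 to 75.9 CPM in SI_Con and 18.6 to 37.0 CPM in SI_WT, and their part in these values was not tested. There was no overlap of groups for Kcnk13 on the higher side (0.694% of genes) and Kcng2 on the lower (1.18% of genes).

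**Figure D5:**
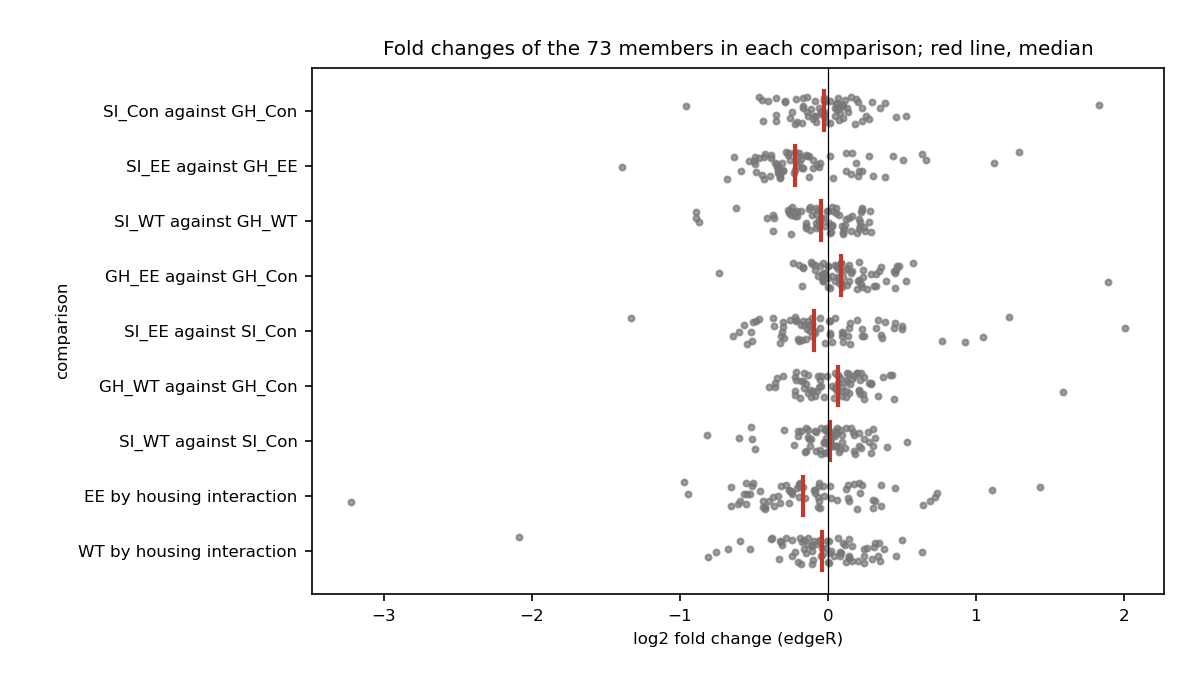
Log2 fold change by edgeR (x axis) of the 73 members, 1 point a member, in 7 pairs of groups and 2 interactions (y axis), with the median as a red line. Medians lie between -0.22 (SI_EE against GH_EE) and 0.09 (GH_EE against GH_Con), and Kcnd3 is the far point of the interaction of enrichment with housing at -3.22.

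The interactions ask whether the difference between an arm and control itself differed between the GH and SI groups. For enrichment, 0 members were called (0.0% of all genes) and 3 had an unadjusted p under 0.05 (4.11%, against 7.74% of all genes) by edgeR, 3 by DESeq2 and 3 by voom, and 5 by edgeR without SI_EE 1. Kcnab3 was the first of these at -0.94 (SE 0.24, edgeR adjusted p = 0.511). Its mean was 111.7 ± 12.6 CPM (SD, n = 4) for GH_Con and 154 ± 15.3 for SI_Con. For GH_EE it was 153 ± 10.7 and for SI_EE 109.9 ± 34.6 CPM. SI_Con and GH_EE thus had the higher means and GH_Con and SI_EE the lower ones. Without SI_EE 1 the interaction was -0.73 (SE 0.16, adjusted p = 0.445). GH_WT and SI_WT had Kcnab3 means of 132 ± 21.1 and 154 ± 10.6 CPM. Its exons overlap Kcnab3os on the opposite strand by 147 bases, so part of its reads could belong to that gene. Kcnd3 had -3.22 (SE 1.01) and -1.93 (SE 1.07) without the 4 libraries with low long genes, and Kcns1 had -0.97 (SE 0.45).

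For the WT arm, the interaction called 0 members (0.0% of all genes) and 3 had an unadjusted p under 0.05 (4.11%, against 4.52% of all genes) by edgeR, 3 by DESeq2 and 2 by voom, and 1 by edgeR without the 4 libraries with low long genes. As reported, the 3 were Kcng2 at -0.67 (SE 0.26), Kcne4 at -0.81 (SE 0.33) and Kcnd3 at -2.08, with edgeR adjusted p of 1.0 each. In the test of any difference among the 6 groups, 0 members were called (0.0491% of all genes) and 6 had an unadjusted p under 0.05 (8.22%, against 8.23% of all genes) by edgeR, 6 by DESeq2 and 3 by voom, and 3 by edgeR without the 4 libraries with low long genes. Kcnk10, Kcng4 and Kcnj12 had the smallest, with edgeR adjusted p of 0.453, 0.471 and 0.492, and in each of them SI_EE 1 was the highest library.

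Members known from glia and vessels did not pass a test either. Kcnj10 (chr1:172341210-172374085, plus strand) had means of 294 ± 61.7 CPM for GH_Con, 222 ± 60.4 for SI_Con, 312 ± 39.5 for GH_EE, 260 ± 63.8 for SI_EE, 320.5 ± 63.1 for GH_WT and 268 ± 53.3 for SI_WT (SD, n = 4). The isolated group had the lower mean in each arm, and the libraries of each pair of groups overlapped. Kcnj10 lay below its median in each of the libraries with low long genes, and stood at 192 CPM in SI_EE 1. All of these libraries but that of GH_Con are in isolated groups. Without SI_EE 1 the SI_EE mean was 283 ± 54.5 CPM (SD, n = 3), still below that of GH_EE. The part of these libraries in the lower means was not tested. The lowest library was SI_Con 3 at 140 CPM. The sum of 7 astrocyte markers was 3266 CPM in SI_Con 3 and 2927 CPM in SI_WT 4, the lowest of all libraries, where Kcnj10 was also low at 140 and 191 CPM, and its part in these values was not tested. Kcnj8, itself 1 of the 6 mural markers listed, stayed between 2.65 and 6.11 CPM.

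Kcnj13 and Kcne2, channel genes known from choroid plexus epithelium, were below the minimum for members. SI_Con 4 had 4.71 CPM of Kcnj13, SI_EE 3 had 4.21 and GH_WT 2 had 3.35, and it was read at most at 1.31 CPM elsewhere. Kcne2 was read at 4.65, 1.93 and 2.92 CPM in the same 3 libraries and at most at 0.583 CPM elsewhere. These are the libraries with the highest choroid plexus marker sums. Kcnj13 had a log2 fold change of -4.30 (SE 1.17, edgeR adjusted p = 1.0) in SI_WT against SI_Con, and the part of choroid plexus RNA in it was not tested.

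A list of 29 genes that work with these channels was read in the same way. It holds the pacemaker channels (Hcn genes), the Kcnd partners Dpp6 and Dpp10, Amigo1 of Kcnb channels and the sulfonylurea receptors Abcc8 and Abcc9. It also holds the axonal anchors Cntnap2, Cntn2, Lgi1, Adam22 and Adam23, Kctd proteins, Lrrc subunits of Kcnma1 and Pex5l. The last are the Atp1 pump genes, whose products set the potassium gradient, and the cotransporters Slc12a2 and Slc12a5. Of the 29, 27 were tested, 0 were called in any of the 10 tests by edgeR, and from 0 to 4 had an unadjusted p under 0.05. The 4 of 27 (14.8%) occurred in SI_EE against SI_Con (12.6% of all genes), in the interaction of enrichment with housing (7.74%) and in the test of any difference (8.23%). Amigo1 was read at 10.7 CPM in SI_WT 4 and 151 CPM in GH_EE 2, with 26.5 and 20.2 CPM in GH_Con 1 and 2 and 126 and 125 CPM in GH_Con 3 and 4. Kctd12 was read at 0.0 CPM in SI_EE 3 and GH_WT 1 and at 51.0 to 120 CPM in all others. Lgi1 was read at 57.8 CPM in GH_EE 4 and 58.6 CPM in GH_WT 2, and at 110 to 173 CPM in all others. Whether such steps lie in the tissue or in the counting was not tested. Hcn4 was read at 9.99 CPM in GH_WT 2 and 12.2 CPM in GH_WT 4 and at most at 6.48 CPM (SI_EE 1) elsewhere. These 3 libraries have the highest thalamic marker sums, whose part in the Hcn4 values was not tested.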

How the data were processed

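Bulk RNA of the medial prefrontal cortex was sequenced in 24 libraries (6 groups of 4, 1 batch date). The deposited values are read counts per gene, whole numbers with totals that differ between libraries and so not normalised by the authors. The build is mm10, per the submitters' processing notes. No aligner, counter, annotation or strand setting is named in the labels. Reads of close paralogues and of overlapping genes could be split, and exons of 24 of the 73 members overlap another gene, 22 of them on the opposite strand. Entries without a symbol held 0.695% of reads.

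Counts were tested with edgeR 4.0.16 in R 4.3.3 (TMM, filterByExpr on the group, robust quasi-likelihood, no covariate, 1 fit over all groups), with Benjamini-Hochberg adjustment over all 20354 genes and a threshold of 0.05. SE is the absolute log2 fold change over the square root of F. The fit was also run on simulated counts with known changes in SI_Con. Those counts held no outlying library, and the share recovered is not given here. The run therefore does not say how large a change could have been missed. Exon lengths, positions and coding sequences came from GENCODE M21. Log2 CPM used a prior count of 2. Alternatives were DESeq2 1.42.0, voom in limma 3.58.1, other scalings, no filter, each pair of groups alone, a replicate block, sex as a covariate and left-out libraries.

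The members and gene lists were chosen with earlier results of these data known. Named genes are the 3 members with the smallest p in each comparison, a fixed list of 27, the highest member per subfamily, members with a library over 3 times the median, and those beside the minimum. Others named for their values were chosen after these were seen. Floors at 3 counts cover counting error only. Some members' own values are not reported here, while counts and sums over the family include them.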

Additional observations from a re-analysis of the deposited data

Results flagged for a closer look

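Single libraries far from the other 3 of their group (by Dixon's critical value for 4 samples) were sought in 192 group values of 32 named genes. There were 26. Chance alone marks about 1 in 20 group values, but some of these genes were named for such a library or for a p that SI_EE 1 moves, so the count is not read against that share.

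SI_EE 1 held 9 of them. It was high for Kcnc1 (592 CPM, nearest 290), Kcnd2 (244, nearest 146), Kcng4 (122, nearest 14.7), Kcnj12 (41.0, nearest 13.6), Kcnk10 (50.02, nearest 9.39), Kcnt1 (272, nearest 124) and Kcne4 (1.51, nearest 1.27). It was low for Kcnh1 (49.4 CPM, nearest 112) and Kcnj4 (24.7, nearest 112).

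SI_WT 4 held 5, all low: Kcnh1 (66.6 CPM, nearest 138), Kcnj3 (19.6, nearest 65.5), Kcnk10 (6.57, nearest 8.01), Kcnk9 (93.5, nearest 103) and Kcnma1 (108, nearest 364).

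Kcnd3 was high in GH_EE 1 (82.6 CPM, nearest 19.2). Kcnj12 in GH_Con 4 (12.6 CPM), Kcnj3 in GH_EE 2 (79.2), Kcnj4 in GH_EE 1 (109, low) and Kcng2 in SI_WT 3 (1.71, low) stood apart by smaller amounts.

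The choroid plexus genes, below the minimum for members, gave the rest. Kcne2 was high in SI_Con 4 (4.65 CPM), GH_EE 1 (0.583), SI_EE 3 (1.93) and GH_WT 2 (2.92), and was at 0 in SI_WT 2, where 3 counts would be 0.0826 CPM. Kcnj13 was high in GH_Con 1 (0.897 CPM) and SI_Con 4 (4.71).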

How the results depend on the processing

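In each of 211 combinations of a comparison with an alternative setting 0 members were called. Many of these combinations share a fit and so are not independent checks. The smallest adjusted p of a member was 0.0634, for Kcng4 in SI_EE against SI_Con without SI_EE 2, and 0.0636 for Kcnj12 in the same comparison with DESeq2. For the 3 members with the smallest p in each comparison, 532 of 534 log2 fold changes under alternatives kept their direction and their side of the threshold. The others were both of Kcng4 in SI_EE against GH_EE, 1.29 as reported, -0.29 without SI_EE 1, and -0.29 without SI_EE 1, GH_WT 2 and GH_WT 4. Leaving out 1 library at a time gave -0.29 to 1.58 for it. Outside that set other named genes changed sign, such as Kcnd3 in SI_WT against SI_Con, -0.49 as reported and 0.29 without the 4 libraries with low long genes.

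Titles give replicate numbers, but same-numbered libraries did not deviate together (mean correlation -0.02 over 60 pairs, 4 of 60 over 0.1, and 4 of 24 libraries closest to their own number). With the replicate block 0 members were called in each comparison, and 1 gene of all instead of 10 in the test of any difference.

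Over all genes the counts of calls moved with the tool. In the test of any difference DESeq2 called 220 genes against 10 with edgeR, in SI_EE against SI_Con 173 against 0, and voom called 0 in each comparison. Depth was at least 33683587 reads in each library, so counting error is small for most members, and the spread between libraries sets the precision.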
